A study of Mus musculus with 6 samples.

Results

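Tmem30a encodes CDC50A, the accessory subunit of the P4-ATPases, and was examined here with 4 catalytic partners, Atp8a1, Atp8a2, Atp11a and Atp11b. They were taken by symbol from the deposited gene table, patch sequences left out, and make up 5 of 51372 genes. Their 46 annotated transcripts were taken from the transcript table of 136550. Tmem30a was chosen by its measured counts: it was selected on transcript Tmem30a-202 having counts in 1 group only. Its values in that contrast are therefore given as a description, without a test. The partners were listed for their known role, but with results of these data known. RNA came from rods of the mouse retina on postnatal day 10, in 6 libraries. The 3 libraries labelled Jun knockdown carried an shRNA against Jun, and the 3 control libraries a scrambled shRNA in pLKO.1. Plasmids were electroporated on postnatal day 0, at 2.5 µg/µl in 0.4 µl. Both groups also received EGFP driven by the Nrl promoter at 1.5 µg/µl, and EGFP-positive cells were flow-sorted. No strain is given, and nothing says which animals a library came from or whether animals were pooled, so p-values measure only the spread between these libraries.

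P4-ATPases, or lipid flippases, move phosphatidylserine and phosphatidylethanolamine from the outer or luminal leaflet of a membrane to its cytoplasmic leaflet. They keep phosphatidylserine off the cell surface, where it would mark a cell for engulfment. Most P4-ATPases leave the endoplasmic reticulum and work only when bound to a CDC50 protein such as CDC50A. In photoreceptors ATP8A2 and CDC50A form a complex in outer segment discs, and mice without Atp8a2, or without Tmem30a in rods, lose photoreceptors.

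Library totals were 13211279 to 13998395 estimated counts in the knockdown-labelled libraries and 32150086 to 105800769 in the controls, so depth and group moved together. Jun itself stood at 1.80, 17.6 and 19.3 CPM (counts scaled to TMM-adjusted library size) in the knockdown-labelled libraries and at 6.46, 5.86 and 7.16 CPM in the controls. Jun was lower than all controls in 1 of the 3 (log2 fold change 0.99, SE 1.44, edgeR adjusted p = 0.764), so the label is kept as a label throughout. Rod markers were present in all libraries, and 10 of 14 fell. Their sum was 32782 to 50132 CPM in the knockdown-labelled libraries against 134694 to 142601 CPM in the controls. Gngt1, most of the sum in the knockdown-labelled libraries, went the other way. It stood at 31308, 18331 and 33263 CPM there and at 20419, 6894 and 13854 CPM in the controls, with overlap. Cnga1 also had a positive log2 fold change, of 0.21. Summed microglia and macrophage markers (4 of 9 tested fell) reached 1.78 to 5.73 CPM in the knockdown-labelled libraries. In the controls they reached 795 to 1075 CPM. Summed Müller glia markers (0 of 8 called) reached 261 to 339 CPM in the knockdown-labelled libraries against 1765 to 2096 CPM in the controls. Clu made up most of that sum in the controls. Slc1a3, Aqp4 and Sox9, of the same list, had positive log2 fold changes, of 0.16, 5.14 and 0.76, all with overlap. The others on that list had negative ones. In the vascular and blood list 3 of 7 tested fell (Rgs5, Hba-a1 and Hbb-bs), with Hba-a1 at 0 in all knockdown-labelled libraries, and Cdh5 at 0 in all controls. Kdr, of the same list, had a positive log2 fold change, of 1.42, with overlap. In the pigment epithelium list 0 of 1 tested fell, with Best1 at 0 in all knockdown-labelled libraries and at 0 to 0.0298 CPM in the controls, and Pmel at 0 in all controls. Cone, bipolar, and amacrine and ganglion lists had 1 of 9, 1 of 8 and 0 of 4 tested genes that fell, and 1 bipolar marker rose. The part these differences have in the members' values was not tested.

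The Tmem30a forms whose shares differed between the groups differ at exon 2. Tmem30a (ENSMUSG00000032328, chromosome 9, 79768943 to 79793507, minus strand, GRCm38) has 4 annotated transcripts, of which Tmem30a-201 and Tmem30a-202 are protein-coding. Tmem30a-201 has 7 exons and an open reading frame of 364 codons. Tmem30a-202 has 6 exons and 328 codons and carries the annotation tag not_organism_supported. It starts 77 bases further upstream and joins exon 1 directly to exon 3. The exon it leaves out, chr9:79780541-79780648, has 108 bases, all of them coding, so the reading frame is kept and codons 80 to 115 of Tmem30a-201 are lost. The stretches that tell the pair apart are printed here from the GENCODE vM21 transcripts, 5′ to 3′, with exon 2 in capitals and 20 bases of exon 1 and of exon 3 in lower case. In the Tmem30a-202 stretch the join of exon 1 to exon 3 falls after base 20.
Tmem30a-201: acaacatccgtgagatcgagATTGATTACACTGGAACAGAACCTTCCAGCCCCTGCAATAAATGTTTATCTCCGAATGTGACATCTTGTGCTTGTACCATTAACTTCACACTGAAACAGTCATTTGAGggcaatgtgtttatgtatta
Tmem30a-202: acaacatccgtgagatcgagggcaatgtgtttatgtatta
Outside exon 2, the join and the upstream bases, both transcripts have the same sequence. Of the distinct 31-base windows in Tmem30a-201 and Tmem30a-202 together, 3493 of 3732 were common to both. Only 104 windows of Tmem30a-202 were absent from Tmem30a-201, and 135 the other way round. Against all other annotated Tmem30a transcripts, Tmem30a-202 had 104 windows of its own and Tmem30a-201 had 0. Reads from the common windows do not tell the pair apart, so the deposited counts of each are estimates.

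**Figure D1:**
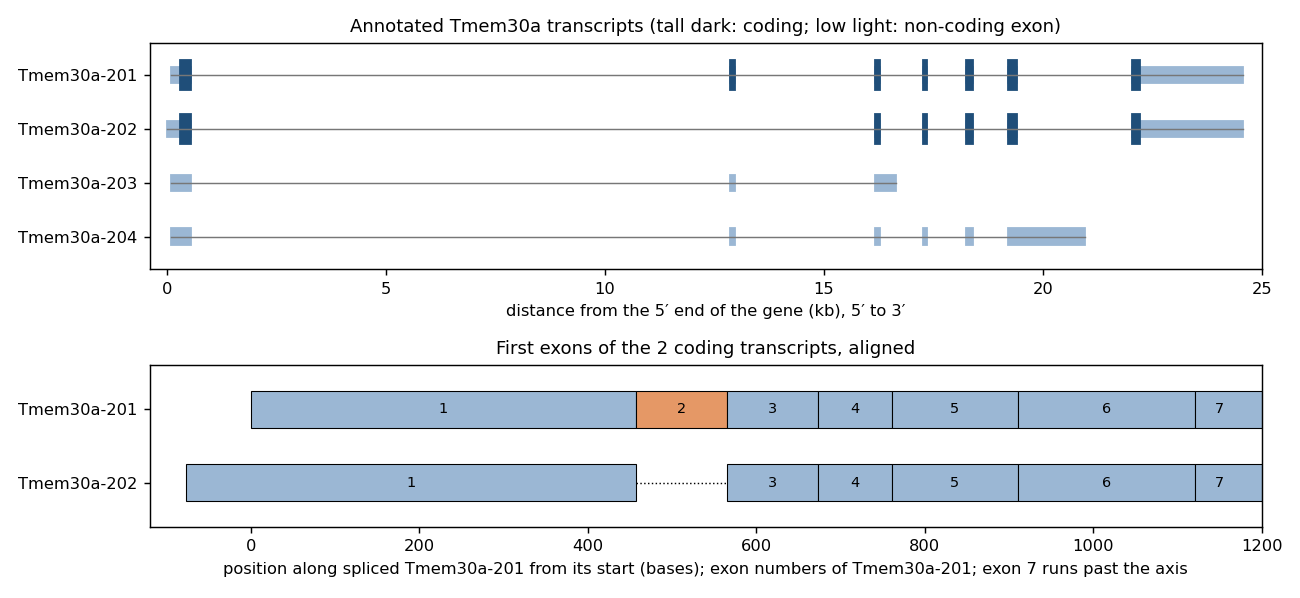
Annotated Tmem30a transcripts drawn to scale, with distance from the gene's 5′ end in kilobases (top) and the first exons of Tmem30a-201 and Tmem30a-202 aligned along the spliced RNA in bases (bottom). The 108-base exon 2, in orange, is in Tmem30a-201 and missing from Tmem30a-202, whose exon 1 begins 77 bases earlier.

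Tmem30a-202 had 3673, 2639 and 2585 estimated counts in knockdown-labelled replicates 1, 2 and 3 and 0 in each of the 3 controls. It was thus present in every knockdown-labelled library and in no control, although the controls were deeper. As a share of Tmem30a's transcript counts it held 91.8, 73.4 and 54.1% in the knockdown-labelled libraries and 0% in the controls. A floor of 3 counts would be 0.0416, 0.0315 and 0.241% of the Tmem30a counts in controls 1, 2 and 3. It covers counting error only, and the share these data allow is higher, since only reads over the windows that differ can tell the forms apart. Tmem30a-201, the full-length form, had 0.0884, 561 and 2172 counts in the knockdown-labelled libraries and 7203, 8708 and 1247 in the controls. It was nearly absent from knockdown-labelled replicate 1 and held 45.5% of the gene's counts in replicate 3. Scaled to library size it stood at 0.00568, 30.4 and 132 CPM in the knockdown-labelled libraries and 222, 121 and 47.5 CPM in the controls. On that scale the groups overlapped, and its log2 fold change was -1.27 (SE 1.87). In the controls it held 100, 91.4 and 100% of the gene's counts, rounded to 3 digits.

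The other Tmem30a transcripts retain introns. Tmem30a-204, with 1541 of its 2662 bases in introns of Tmem30a-201, had 327, 397 and 10.2 counts in the knockdown-labelled libraries and 2.45, 819 and 0 in the controls. Scaled to library size it stood at 21.0, 21.5 and 0.617 CPM in the knockdown-labelled libraries and 0.0757, 11.4 and 0 CPM in the controls. On that scale the groups overlapped. Tmem30a-203 had 7.22 counts in knockdown-labelled replicate 3 and 0 elsewhere. Together the 2 protein-coding forms held 93.5 ± 5.53% of Tmem30a counts in the knockdown-labelled libraries and 97.1 ± 4.95% in the controls (SD, n = 3 each), with overlap.

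Of 20706 tested transcripts, 0.633% had 0 counts in all controls and at least 10 in every knockdown-labelled library, and 2.62% had the opposite pattern. Among 3141 genes with several transcripts and at least 100 counts in each library, 14 (0.446%) had, like Tmem30a, a transcript at 0 in all controls that held 50% or more of the gene in the knockdown-labelled libraries. In 27 genes (0.86%) a transcript with 50% or more of the gene in the controls was at 0 in all knockdown-labelled libraries. Tmem30a was chosen for this pattern, so these shares say only how common it was.

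At gene level Tmem30a stood at 262, 194 and 290 CPM in the knockdown-labelled libraries and at 184.5, 105.9 and 43.3 CPM in the controls. The groups did not overlap, and the controls spread more widely. The log2 fold change was 1.16 (SE 0.62). In these bulk samples fewer cells of a type and less RNA per cell cannot be told apart, for this and every later level. Of all 12815 tested genes, 1.67% were called at an adjusted p under 0.05 (0.32% higher and 1.35% lower). Groups without overlap were found in 12.6% of them with the knockdown-labelled libraries higher and in 15.7% with those lower.

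**Figure D2:**
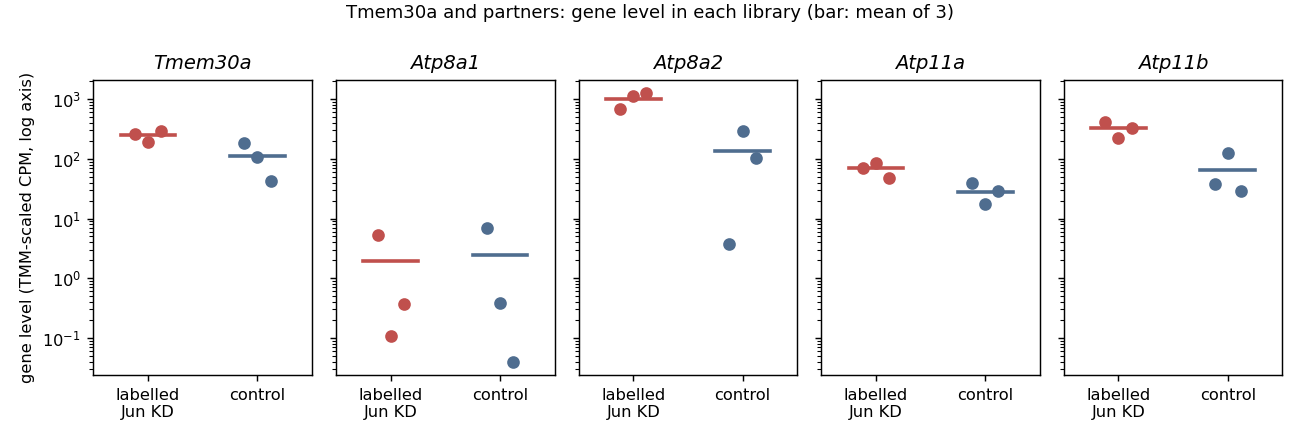
Gene level of Tmem30a and its 4 partners in each library, as TMM-scaled CPM on a log axis, with knockdown-labelled libraries left, controls right and a bar at the mean of 3. Tmem30a, Atp8a2, Atp11a and Atp11b lie wholly higher in the knockdown-labelled libraries, Atp8a1 overlaps near the bottom of the axis, and Atp8a2 in control replicate 1 sits at 3.71 CPM.

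Among the catalytic partners, Atp8a2, Atp11a and Atp11b had higher gene levels in each of the 3 knockdown-labelled libraries than in any control. None passed edgeR's quasi-likelihood test. These levels rest on deposited gene counts, whose ratio to the sum of transcript counts was also higher in every knockdown-labelled library for all 3. The ratio was 0.892 to 1.55 against 0.644 to 0.771 in the controls for Atp11a. For Atp11b it was 1.33 to 1.91 against 1.06 to 1.21, and Atp8a2 is given below. Of the 4 partners 3 passed the low-count filter, 0 were called with edgeR, 2 had an unadjusted p under 0.05 (16.8% of all tested genes did), and 0 were called with DESeq2 or limma-voom. With 12.6% of all tested genes also lying wholly higher, the lack of overlap was not rare.

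Atp8a2 (ENSMUSG00000021983, chromosome 14, 59638540 to 60197179, minus strand) encodes the flippase that works with CDC50A in outer segment discs. Its gene level was 677, 1133 and 1264 CPM in the knockdown-labelled libraries and 3.71, 296 and 102 CPM in the controls. All knockdown-labelled libraries were above all controls, and control replicate 1 was far below the other two. The log2 fold change was 2.93 (SE 1.11, edgeR adjusted p = 0.228). Without the low-count filter it passed (2.73, edgeR adjusted p = 4.21e-05), the only setting in which a partner gene was called. Its transcripts did not share 1 direction. Atp8a2-201, the full-length coding form of 36 exons, had 1398, 1484 and 1250 counts in the knockdown-labelled libraries and 300.4, 19348 and 4200 in the controls. Scaled to library size it stood at 82.1 ± 7.14 CPM against 146 ± 130 CPM, with overlap. Atp8a2-204, a form of 9 exons annotated as subject to nonsense-mediated decay, had 2128, 4544 and 4319 counts against 1.11, 3839 and 194. It leaves out exon 6 of Atp8a2-201, its coding stretch ends after 387 bases, and 436 of its 1499 bases lie in introns of Atp8a2-201.

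Atp8a2-204 held 60.3, 75.3 and 77.6% of Atp8a2 counts in the knockdown-labelled libraries and 0.370, 16.6 and 4.41% in the controls. These count shares did not overlap. They depend on length, as Atp8a2-204 has 1499 bases and Atp8a2-201 has 12886. Per annotated length, nonsense-mediated decay forms of Atp8a2 held 95.3 ± 2.10% in the knockdown-labelled libraries and 31.4 ± 30.1% in the controls (SD). The share in protein-coding transcripts was 28.9 ± 9.37% in the knockdown-labelled libraries and 92.9 ± 8.42% in the controls (SD, n = 3 each, two-sided exact permutation p = 0.1, the smallest possible, 0.3 adjusted over 6 tests). As transcripts, Atp8a2-204 had a log2 fold change of 3.41 (SE 1.78, edgeR adjusted p = 0.438) and Atp8a2-201 one of -0.83 (SE 1.05, edgeR adjusted p = 0.772). Of the 1469 windows of 31 bases in Atp8a2-204, 957 were also in Atp8a2-201 and 512 (34.9%) were not, and 7 of its 9 exons were identical to exons of Atp8a2-201. The deposited gene count of Atp8a2 was 2.82 to 3.47 times the sum of its transcript counts in the knockdown-labelled libraries and 0.448 to 1.15 times that sum in the controls. On transcript sums, an analysis added after the data were seen, the log2 fold change was 1.12 (SE 0.93, edgeR adjusted p = 0.566).

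Atp11b (ENSMUSG00000037400, chromosome 3, 35754106 to 35856276, plus strand) encodes a flippase found on endosomal and Golgi membranes of human cells. Its gene level was 418, 228 and 325 CPM in the knockdown-labelled libraries and 37.5, 127 and 28.5 CPM in the controls, without overlap. The log2 fold change was 2.33 (SE 0.70, edgeR adjusted p = 0.133). Most of its counts in the knockdown-labelled libraries were in forms annotated as retaining introns. Atp11b-202, a 4-exon form with 454 of its 1918 bases in introns of Atp11b-201, had 1624, 1653 and 1895 counts there and 643.8, 0 and 212 in the controls. Atp11b-203, with 27 of its 29 exons identical to those of Atp11b-201 and 1459 bases in its introns, had 1122, 959 and 1133 counts there and 192, 0 and 0 in the controls. It stood at 64.3 ± 10.8 CPM in the knockdown-labelled libraries and 1.98 ± 3.42 CPM in the controls (n = 3 each, edgeR adjusted p = 0.451, and 0.0407 with limma-voom).

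The full-length coding form Atp11b-201 had 0, 149 and 0 counts in the knockdown-labelled libraries and 317, 5841 and 26.6 in the controls. In the controls each library was led by another form. Atp11b-202 held 52.2% in replicate 1, Atp11b-201 held 62.0% in replicate 2, and the non-coding Atp11b-210 held 62.0% in replicate 3. Protein-coding forms held 2.92, 12.9 and 6.90% of Atp11b counts in the knockdown-labelled libraries and 27.1, 96.4 and 3.55% in the controls, which overlapped (two-sided exact permutation p = 0.3, 0.45 adjusted over 6 tests). Forms that retain introns held 86.2, 87.1 and 93.1% of counts in the knockdown-labelled libraries and 72.9, 3.60 and 34.4% in the controls. These count shares did not overlap, and how many of all genes showed this order was not counted. Per annotated length the shares lay closer, at 68.1 ± 11.6% in the knockdown-labelled libraries and 44.2 ± 37.9% in the controls (SD). Among the minor forms, the coding Atp11b-206 had 94.0, 241 and 236 counts in the knockdown-labelled libraries and 17.7, 961 and 0 in the controls. Atp11b-209, an unspliced form, had 30.2, 30.7 and 68.6 counts against 62.8, 331 and 44.2. Scaled to library size, Atp11b-206 stood at 11.1 ± 4.45 against 4.63 ± 7.55 CPM and Atp11b-209 at 2.59 ± 1.37 against 2.74 ± 1.61 CPM. Both overlapped. The rest were nearly confined to single libraries: Atp11b-211 had 350.5 counts in knockdown-labelled replicate 1 and Atp11b-205 had 85.8 in replicate 3, while the coding Atp11b-207 had 2285 in control replicate 2 and Atp11b-210 had 465 in control replicate 3. No 31-base window of Atp11b-201 was absent from all its other transcripts.

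Atp11a (ENSMUSG00000031441, chromosome 8, 12757014 to 12868728, plus strand) encodes a flippase of the plasma membrane. Its gene level was 71.6, 86.8 and 48.7 CPM in the knockdown-labelled libraries and 39.1, 17.4 and 28.7 CPM in the controls. The groups did not overlap, and the lowest knockdown-labelled library stood close to the highest control. The log2 fold change was 1.28 (SE 0.90, edgeR adjusted p = 0.503). Of its transcripts, the 15-exon coding form Atp11a-206 led every library, with 653, 541 and 381 counts in the knockdown-labelled libraries and 1343, 1804 and 868 in the controls. Scaled to library size it stood at 31.5 ± 9.59 CPM in the knockdown-labelled libraries and 33.2 ± 8.20 CPM in the controls, with overlap (log2 fold change -0.08, edgeR adjusted p = 0.982). It had 0 windows of 31 bases of its own. Its annotation tags mRNA_start_NF and cds_start_NF mark a start that was not found, and Atp11b-206 and Atp11b-207 carry the same tags. The protein-coding shares and levels include these incomplete forms. The full-length coding Atp11a-202 had 248, 332 and 309 counts in the knockdown-labelled libraries and 858, 397 and 161 in the controls, and 17.6 ± 1.44 against 12.7 ± 11.9 CPM, with overlap. Atp11a-208 had at most 29.6 counts. Atp11a-203, a 2-exon form with 2124 of its 2295 bases in introns of Atp11a-202, had 252, 93.0 and 141 counts in the knockdown-labelled libraries and 12.4, 1.00 and 2.23 in the controls. It had a log2 fold change of 5.99 (SE 2.02, edgeR adjusted p = 0.182, and 0.0132 with DESeq2). Protein-coding forms held 82.9 ± 4.75% of Atp11a counts in the knockdown-labelled libraries and 99.6 ± 0.214% in the controls, without overlap (two-sided exact permutation p = 0.1, the smallest possible, 0.3 adjusted over 6 tests). Per annotated length these shares were 57.1 ± 6.68% in the knockdown-labelled libraries and 97.8 ± 1.81% in the controls.

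Atp8a1 (ENSMUSG00000037685, chromosome 5, 67618140 to 67847434, minus strand), the closest relative of Atp8a2 and a phosphatidylserine flippase, was barely detected. Its gene level was 5.32, 0.106 and 0.372 CPM in the knockdown-labelled libraries and 6.87, 0.384 and 0.0394 CPM in the controls. Only replicate 1 of each group stood above 1 CPM, and the gene did not pass the low-count filter. In replicate 1 of both groups its counts lay almost wholly in Atp8a1-207, a coding form with 149, 0 and 8 counts in the knockdown-labelled libraries and 479, 2.45 and 2 in the controls. Atp8a1-202, Atp8a1-208, Atp8a1-209, Atp8a1-212 and Atp8a1-214 had 1 count each, in single libraries, and 7 of its 14 transcripts had 0 in all 6.

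**Figure D3:**
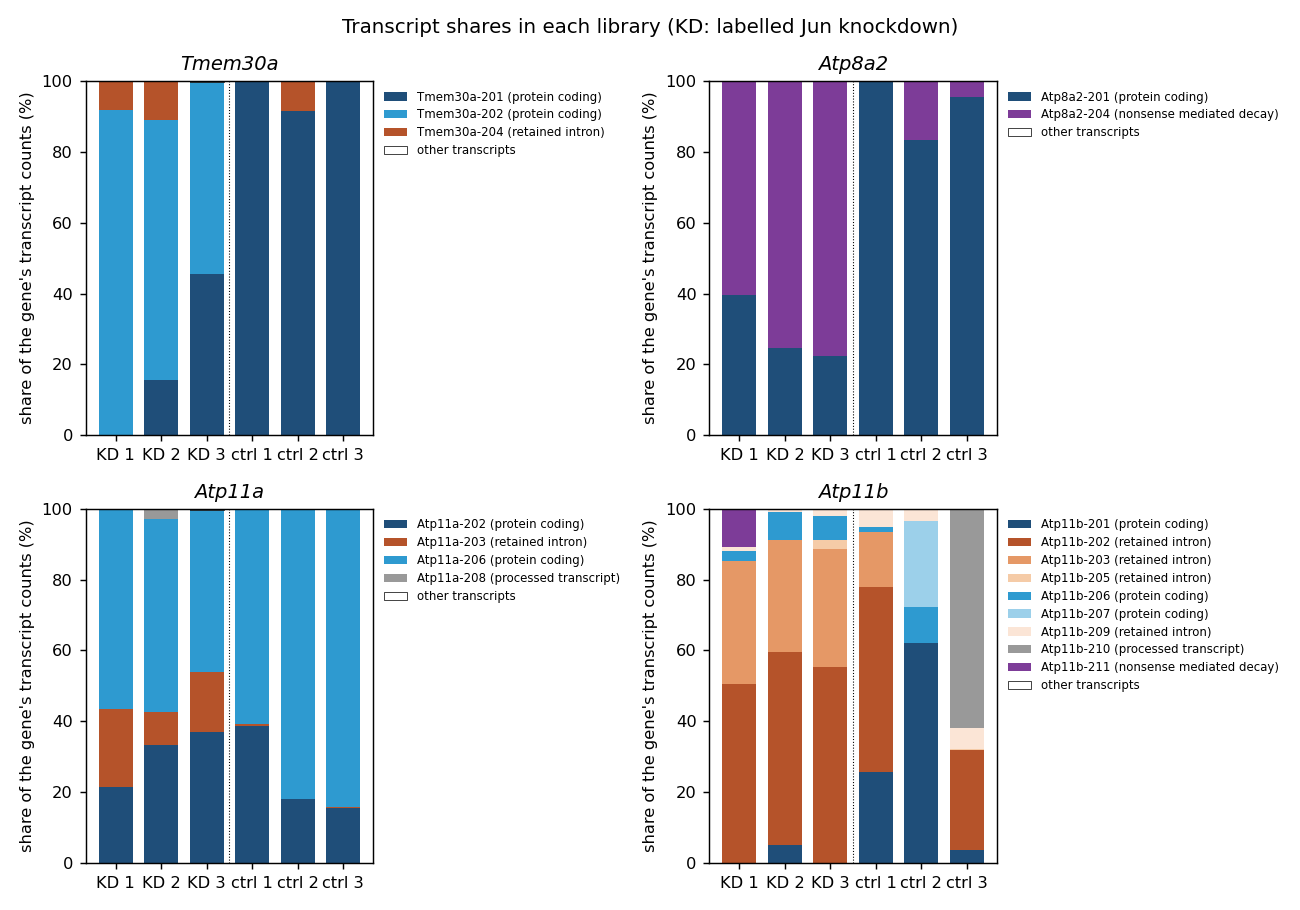
Share of each gene's transcript counts (percent) held by each transcript, by library, for the 4 members with at least 100 counts in every library, knockdown-labelled libraries (KD) left of the dotted line and controls right. Blue marks protein-coding forms, orange and brown retained introns, purple nonsense-mediated decay and grey processed transcripts. Tmem30a-202 is seen in the knockdown-labelled libraries alone, Atp8a2-204 leads there with 60.3 to 77.6%, and the 3 controls differ widely for Atp11b.

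Counted over the members, protein-coding shares of Atp8a2 and Atp11a were lower in every knockdown-labelled library than in every control, while those of Tmem30a and Atp11b overlapped. Among 2843 genes with at least 100 counts in each library and a non-coding form, 17.2% showed the same order and 5.1% the opposite one. Over all protein-coding genes, retained-intron transcripts held 8.49 ± 0.989% of counts in the knockdown-labelled libraries and 3.23 ± 0.405% in the controls, and nonsense-mediated decay transcripts 3.37 ± 0.101% and 2.47 ± 0.0839% (n = 3 each). The part of these library-wide shares in the members' values was not tested. Of the 42 partner transcripts 11 passed the low-count filter, and 0 were called with edgeR, where 0.662% of all 20706 tested transcripts were called (0.058% higher and 0.604% lower). An unadjusted p under 0.05 was found for 1 of the 11 and for 15.5% of all tested transcripts. DESeq2 and limma-voom called 1 partner transcript each, among 4025 and 1642 transcripts called in all.

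Levels of different genes were compared per annotated transcript length (TPM, each transcript's count over its length, scaled to a fixed library sum). Over all transcripts the order in the knockdown-labelled libraries was Atp8a2 (241 ± 83.3 TPM), Atp11b (159 ± 21.2), Tmem30a (109.7 ± 7.47), Atp11a (23.2 ± 6.41) and Atp8a1 (0.655 ± 0.995). In the controls it was Tmem30a (39.1 ± 24.4 TPM), Atp8a2 (26.9 ± 30.8), Atp11b (26.8 ± 22.2), Atp11a (8.38 ± 2.99) and Atp8a1 (0.656 ± 1.07), where the first 3 differed by less than their SDs. Atp8a2 and Atp11b overlapped in the knockdown-labelled libraries as well. Counted over protein-coding transcripts alone, Tmem30a had the highest mean in both groups, with 100.5 ± 14.4 TPM in the knockdown-labelled libraries and 37.6 ± 24.4 TPM in the controls. With both coding forms counted, the accessory subunit stood above each catalytic partner on this scale in all 3 knockdown-labelled libraries. It did not in control replicate 2, where Atp11b stood at 49.5 TPM and Tmem30a at 35.7 TPM. In the knockdown-labelled libraries Tmem30a-202, the form Tmem30a was chosen on, held 91.8, 73.4 and 54.1% of the gene's counts. The order there is therefore a description, and Tmem30a-201 alone was not ranked. Coding Atp8a2 stood at 10.6, 11.5 and 8.59 TPM in the knockdown-labelled libraries and at 0.745, 22.5 and 13.6 TPM in the controls, with overlap (two-sided exact permutation p = 0.7, 0.7 adjusted over 6 tests). Coding Atp11b stood at 29.9 ± 13.6 against 17.6 ± 27.7 TPM (exact permutation p = 0.6, adjusted 0.7), and coding Atp11a at 12.98 ± 2.52 against 8.19 ± 2.95 TPM (exact permutation p = 0.2, adjusted 0.4), knockdown-labelled libraries first and n = 3 each.

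**Figure D4:**
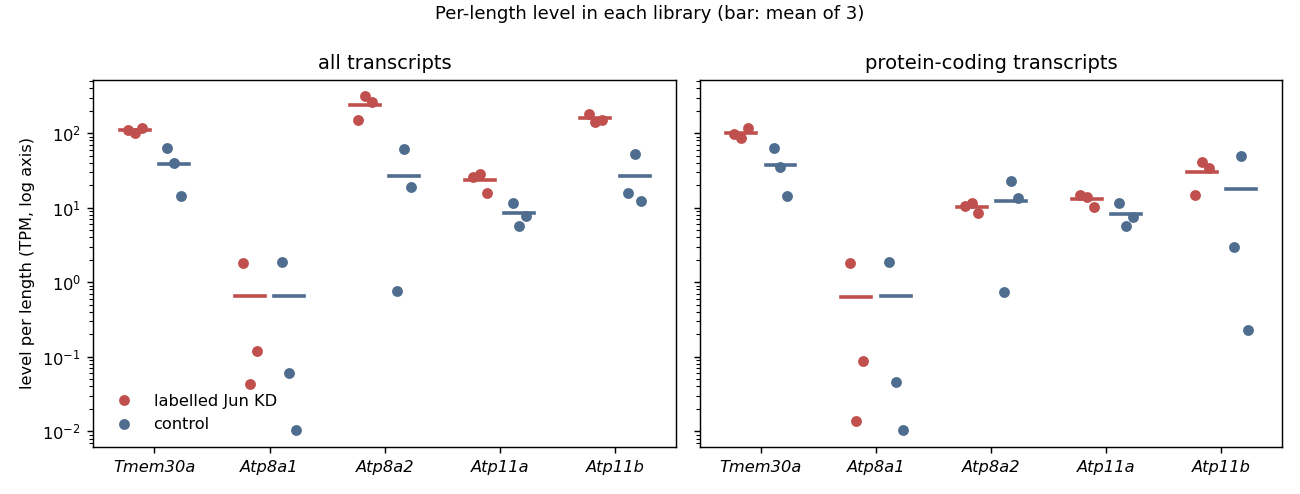
Level per annotated length (TPM, log axis) of the 5 members in each library, over all transcripts (left) and protein-coding transcripts (right), with knockdown-labelled libraries in red left of controls in blue and a bar at the mean of 3. Atp8a2 averages 241 TPM in the knockdown-labelled libraries over all transcripts and 10.2 TPM over coding ones, where it overlaps the controls.

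The genes whose profile over the 6 libraries was most like that of Tmem30a were Ggnbp2, Papd5, Rbm12, Pnn and Wdr12. Likeness was the root mean square difference between log2 CPM profiles, each centred on its own mean, among 7978 genes with a mean of at least 10 CPM. It was 0.16 for Ggnbp2 and 0.22 to 0.26 for the other four. Ggnbp2 stood at 341, 297 and 458 CPM in the knockdown-labelled libraries and at 212, 137 and 64.2 CPM in the controls, the same order of controls as Tmem30a. Among the partners Atp11a came nearest, at 0.74 and rank 404, then Atp11b at 0.99 and rank 1077. Atp8a2 stood at 2.78 and rank 5519, and Atp8a1 was below the minimum level.

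The other machinery for moving lipids between leaflets was followed in 8 lists of 73 genes, 43 of which passed the low-count filter. Of these 43, 0 were called with edgeR, where 1.67% of all tested genes were called, and 6 had an unadjusted p under 0.05, as did 16.8% of all tested genes. DESeq2 called 5 of them, and 1955 of 16114 genes in all. With limma-voom 1 was called, and 442 of 12815 genes in all. Their median log2 fold change was -0.21, and that of all tested genes -0.12. The flippases outside the members were led by Atp9b, a Golgi P4-ATPase that needs no CDC50 partner, at 44.6, 28.4 and 109 CPM in the knockdown-labelled libraries and 0.345, 0.0231 and 0.0659 CPM in the controls. The groups lay far apart, with a log2 fold change of 8.64 (SE 1.80, edgeR adjusted p = 0.0532). Atp9b passed with library totals, without the filter, with DESeq2 and with limma-voom. Atp10d averaged 14.3 ± 22.2 CPM in the knockdown-labelled libraries and 2.83 ± 3.41 CPM in the controls, and Atp9a 6.67 ± 10.6 and 20.4 ± 26.9 CPM (n = 3 each). Of 11 such P4-ATPases 5 were tested, with a median of -0.70. The CDC50 paralog Tmem30c stood at 3.22 ± 0.425 against 2.11 ± 2.69 CPM, and Tmem30b did not pass the filter.

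Scramblases, which let lipids cross in both directions, were led by Ano6, a calcium-activated scramblase, at 949, 524 and 41.6 CPM in the knockdown-labelled libraries and 6.05, 2.37 and 34.3 CPM in the controls. Replicate 3 of the knockdown-labelled group was close to the highest control (log2 fold change 5.15, SE 1.34, edgeR adjusted p = 0.0887). Ano10, of the same family, averaged 0.987 ± 0.157 CPM in the knockdown-labelled libraries and 41.7 ± 65.3 CPM in the controls, where replicate 1 stood at 117 CPM and replicate 3 at 1.00 CPM. Vmp1, a scramblase of the endoplasmic reticulum, averaged 142 ± 90.5 and 364 ± 56.4 CPM without overlap (edgeR adjusted p = 0.273). Of 20 scramblases 7 were tested, with a median of -0.29. Among 4 tested ABCA transporters, with a median of 0.55, Abca1, a lipid exporter, averaged 81.9 ± 53.3 CPM in the knockdown-labelled libraries and 17.3 ± 12.2 CPM in the controls. Abca3 averaged 12.2 ± 19.0 and 7.70 ± 5.92 CPM, and Abca2 2.44 ± 2.35 and 1.81 ± 2.88 CPM. Abca4, the disc transporter of retinylidene-phosphatidylethanolamine, was chosen after its values were seen: it averaged 112 ± 46.9 CPM in the knockdown-labelled libraries and 104 ± 30.9 CPM in the controls (log2 fold change 0.10, SE 0.67).

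Among 7 tested genes of phosphatidylserine and phosphatidylethanolamine synthesis the median was -0.68. Ptdss1, a phosphatidylserine synthase, averaged 27.7 ± 20.8 CPM in the knockdown-labelled libraries and 81.5 ± 50.4 CPM in the controls, and Pisd, the mitochondrial decarboxylase, 10.6 ± 15.0 and 45.2 ± 53.8 CPM. Etnk1, an ethanolamine kinase, averaged 72.3 ± 34.9 and 40.7 ± 12.7 CPM. In the 5 tested genes of phosphatidylserine transfer, with a median of 1.02, Esyt2, a tether between endoplasmic reticulum and plasma membrane, averaged 90.5 ± 70.4 CPM in the knockdown-labelled libraries and 6.66 ± 7.37 CPM in the controls without overlap (log2 fold change 3.76, SE 1.32, edgeR adjusted p = 0.195). Esyt1 averaged 4.44 ± 3.36 and 1.03 ± 0.300 CPM, and Osbpl8 284 ± 185 and 141 ± 129 CPM. None of these genes passed edgeR's test.

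Genes that route or regulate flippases had a median of -0.56 over 8 tested. Mon2 and Dop1a (deposited as Dopey1), a pair that acts in endosome-to-Golgi traffic, averaged 81.1 ± 46.0 and 115 ± 57.5 CPM in the knockdown-labelled libraries and 16.3 ± 13.1 and 34.7 ± 22.8 CPM in the controls. Arl1, a Golgi GTPase, averaged 172 ± 104 and 346 ± 139 CPM. In the list of phosphatidylserine recognition 6 of 12 genes were tested, with a median of -1.03. Anxa5, which encodes the phosphatidylserine-binding annexin A5, averaged 3.00 ± 4.15 CPM in the knockdown-labelled libraries and 70.6 ± 34.6 CPM in the controls without overlap (log2 fold change -4.56, SE 1.67, edgeR adjusted p = 0.214). Itgav averaged 10.5 ± 8.77 and 0.847 ± 1.29 CPM, and Pros1 6.29 ± 5.95 and 29.5 ± 49.4 CPM. Summed microglia, macrophage and Müller glia markers were lower in the same libraries, as given earlier. Of the Müller glia list, Slc1a3, Aqp4 and Sox9 went the other way. The part that the summed markers have in these values was not tested.

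**Figure D5:**
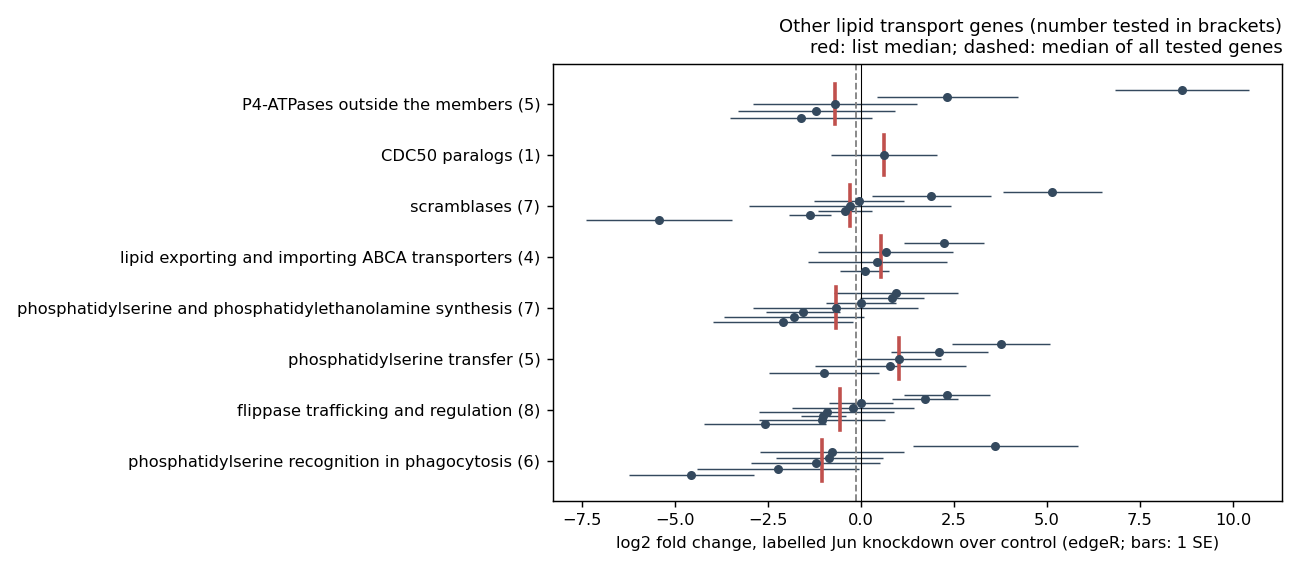
Log2 fold change (knockdown-labelled over control, edgeR, bars 1 SE) of the 43 tested genes of 8 lists, 1 point a gene, with each list's median in red and that of all tested genes, -0.12, as a dashed line. Points lie on both sides of 0 in 6 lists, and the highest is Atp9b at 8.64.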

How the data were processed

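Values deposited by the authors were estimated counts, for genes and for transcripts, and a gene signal, named as CPM although its columns sum to more than CPM allows. Per the submitters' processing notes, which give no order or role, Trimmomatic 0.39, kallisto 0.44.0 and edgeR 3.28.1 are listed. cDNA was made with SMART-seq v4 and libraries with Nextera XT, per the labels' protocols. How gene values were summarised, and on which build, is not given in the sources available. Names, biotypes and lengths came from GENCODE vM21 (GRCm38), which held 98.5% of the transcripts. No strand marking is stated.

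Estimated counts were rounded, passed through filterByExpr and TMM scaling, and tested over all 12815 genes or 20706 transcripts with edgeR 4.0.16 (R 4.3.3, quasi-likelihood, group alone, Benjamini-Hochberg, threshold 0.05). SE is the log2 fold change over the square root of F. Deposited gene counts are not sums of transcript counts. Alternatives used DESeq2 1.42.0, limma 3.58.1, other scalings and filters, and the deposited signal with pseudocounts of 0.5 and 2; transcript sums as gene values were added after the data were seen. Functions were tested on simulated data.

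Members and lists were chosen with earlier results of these data known. Named were the members, transcripts with at least 5% of a gene or 10 counts, the 3 genes of each list with the smallest p, and the 5 profiles nearest Tmem30a. Sample columns left out: 0.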

Additional observations from a re-analysis of the deposited data

How the results depend on the processing

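Gene-level directions of Tmem30a, Atp8a2, Atp11a and Atp11b held under all alternatives run. No partner gene was called in any of them but 1: without the filter Atp8a2 passed, so member genes past the threshold numbered 1. Member transcripts past the threshold numbered 1, which was Tmem30a-202. Since the set was chosen on it, that call and its changes are no evidence. Leaving out a library gave 0 to 1, with 1 only without knockdown-labelled replicate 2, among 22 to 101 transcripts called in all. DESeq2 and limma-voom gave 2, the other being Atp11a-203 and Atp11b-203 in turn. List genes past the threshold numbered 1 with library totals, limma-voom and limma-trend (both pseudocounts), 2 without the filter, at a threshold of 0.1 and on transcript sums, and 6 with DESeq2, of which Abca7 had not passed edgeR's filter. Leaving out a library gave 0 each time. Over all genes 214 were called, against 737 without the filter, 1955 with DESeq2, 442 with limma-voom, 615 and 553 with limma-trend, 644 at a threshold of 0.1 and 36 to 110 with a library left out. Upper quartile scaling and library totals moved the median of all genes to 0.27 and 0.38.

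Among the results recomputed, signs turned for transcripts that were not called and for 1 share. Atp11a-206 (log2 fold change -0.08) gave 0.61 with upper quartile scaling, 0.70 with library totals, 0.0028 with limma-voom, 0.22 after thinning and -0.35 to 0.085 with a library left out. Atp11b-209 (-0.08) gave 0.70 with either scaling (upper quartile or library totals), 0.23 after thinning and -0.58 to 0.48 with a library left out. Atp8a1-207 (-0.56) gave 0.19 with upper quartile scaling, 0.20 with library totals, 0.55 with limma-voom and 0.096 with a replicate block. The share of Atp11a-202 differed by 6.47 points in counts and -1.95 points per length. Per length, the protein-coding share of Atp11a differed by -40.8 points (-16.7 in counts), and the shares of Atp11a-203, Atp11a-206 and Atp11b-203 by 29.4, -39.5 and 8.06 points (15.7, -23.3 and 28.01 in counts). The cause was not tested.

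No label says that replicate numbers pair libraries. Deviations of same-numbered libraries correlated at 0.00042, 0.0080 and -0.015, which cannot show whether they shared animals or a batch. With a replicate block, 0 member transcripts were called, and 82 transcripts and 97 genes in all. Estimated splits between near-identical transcripts limit precision, and depth was fully confounded with group.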
